A study of Mus musculus with 12 samples.

Results

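The T cell genes described here are Cd3d, Cd3e, Cd3g, Cd247, Cd2, Cd5, Cd4, Cd8a, Itgae and Klrk1. They were chosen by symbol, and all 10 were among the 14533 genes of the deposited count table. RNA was sequenced from scraped dorsal epidermis of 12 C57BL/6 mice, 1 library per mouse, from skin without lesions. All mice carried floxed Pparg alleles. The 6 Pparg-/-epi mice also carried 1 copy of a Cre transgene driven by the keratin 14 promoter, which is active in basal keratinocytes. Whether Cre acted in T cells was not tested here. The 6 WT mice were described as siblings without Cre. The mice were 8 to 13 weeks old by the labels, with 3 female and 3 male WT mice and 4 female and 2 male Pparg-/-epi mice. Mice are named here by library number, WT 1 to 6 and Pparg-/-epi 7 to 12. The skin was scraped down to the superficial blood vessels, so the samples hold some dermis and its cells.

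The epidermis of mice holds a resident population of γδ T cells, the dendritic epidermal T cells, which carry a T cell receptor on their surface and watch over neighbouring keratinocytes. Most of these cells carry neither CD4 nor CD8, whereas αβ T cells of the dermis and the blood usually carry one of them. The receptor signals through the CD3 chains, and coreceptors, adhesion molecules and inhibitory receptors set how strongly the cell responds. In bulk samples such as these, fewer T cells and less RNA per T cell cannot be told apart.

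Total counts ranged from 10120840 to 18851255 per library, so that 1 count was worth 0.053 to 0.0988 CPM, the count after scaling by library total and TMM factor. Every listed gene exceeded 0.5 CPM in at least 6 mice. WT 2 stood apart from the other WT mice: its endothelial marker level was 133 CPM, against 7.99 to 79.3 CPM in the others, and its Itgae and Cd4 levels were the highest among WT mice. WT 1 had the highest fibroblast marker level, 34500 CPM against 1010 to 10500 CPM in the other WT mice, and WT 5 the highest skeletal muscle level, 9060 CPM against 5.65 to 229 CPM. Changes in a call among the 10 genes when any of these mice was left out are given beside the gene. Pparg, the targeted gene, had 5 to 269 counts over WT mice and 16 to 107 over Pparg-/-epi mice (log2 fold change, log2FC, -0.10 with a standard error, SE, of 0.71, adjusted p = 0.949). The groups overlapped, so these counts did not separate the genotypes. They cover the whole gene, and how much of them came from the shortened transcript that Cre leaves or from cells without Cre was not tested.

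Of the 10 T cell genes, 2 were higher in Pparg-/-epi mice, Cd5 and Cd8a, and 1 was lower, Cd3e. A gene was called altered at an adjusted p under 0.05 (edgeR's quasi-likelihood test over all 14533 genes) and a log2FC of 0.6 or more in size. Over all genes, 10.3% were altered, with 5.19% higher and 5.08% lower. The median log2 fold change of the 10 genes was 0.23, against -0.01 over all genes, with 6 above 0 and 4 below. The 4 below 0 were the chains of the CD3 complex.

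**Figure D1:**
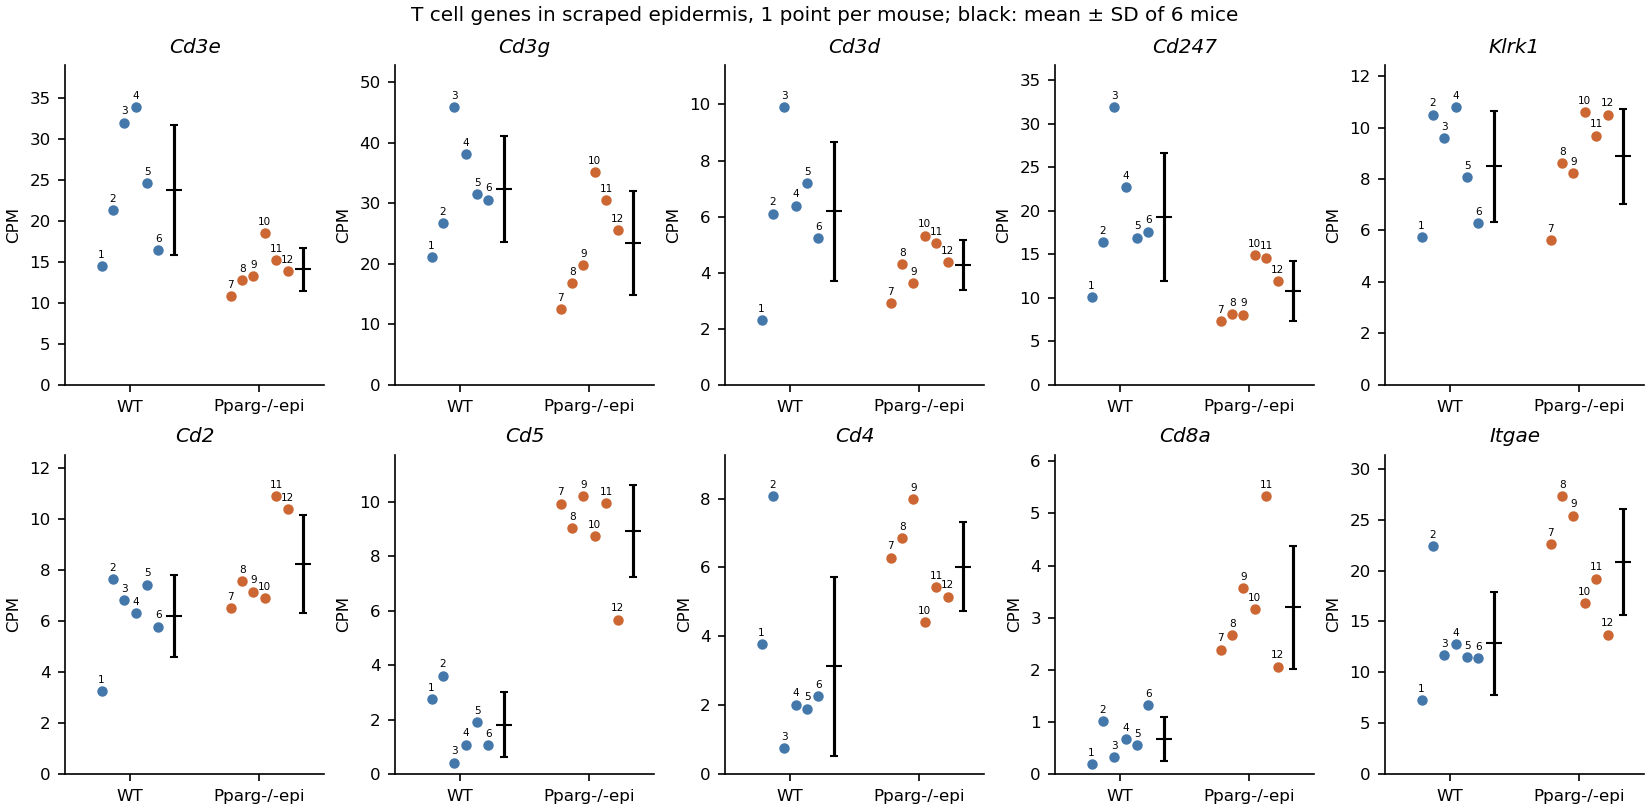
Level of each T cell gene in CPM (vertical axes, from 0) in 6 WT (blue) and 6 Pparg-/-epi mice (orange). Each point is a mouse with its library number, and black bars are the mean and SD. Cd5 and Cd8a of Pparg-/-epi mice all lie above those of WT mice, while Cd3e and Cd247 of all 6 Pparg-/-epi mice lie below the WT median.

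The promoters of the 3 altered genes are printed first, because these genes moved in opposite directions. The sequences are from RefSeq (GRCm38.p6), 250 bases before to 50 bases after the start, 5′ to 3′ along the gene. Such a promoter was matched for 7 of the 10 genes; Cd2, Cd4 and Itgae had none. Capitals mark the letters TGTGGT (RUNX), AGGAAG (ETS), CAGGTG (the E box of E proteins) or TGACGT (CRE) on either strand; no marked stretches overlap.
Cd3e, chr9:45009562-45009861, minus strand: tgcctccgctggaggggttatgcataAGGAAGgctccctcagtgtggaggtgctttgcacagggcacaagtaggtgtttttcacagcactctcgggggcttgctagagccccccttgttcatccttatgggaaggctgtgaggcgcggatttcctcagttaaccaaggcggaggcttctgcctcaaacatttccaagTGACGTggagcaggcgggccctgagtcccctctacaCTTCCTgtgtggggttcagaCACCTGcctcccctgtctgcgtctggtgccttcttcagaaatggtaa
Cd5, chr19:10738925-10739224, minus strand: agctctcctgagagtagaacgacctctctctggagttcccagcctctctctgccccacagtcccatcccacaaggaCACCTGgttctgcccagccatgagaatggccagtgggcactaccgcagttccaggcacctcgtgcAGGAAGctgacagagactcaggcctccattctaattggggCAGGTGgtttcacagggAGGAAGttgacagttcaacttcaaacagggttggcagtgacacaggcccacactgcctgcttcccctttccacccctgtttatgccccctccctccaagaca
Cd8a, chr6:71373177-71373476, plus strand: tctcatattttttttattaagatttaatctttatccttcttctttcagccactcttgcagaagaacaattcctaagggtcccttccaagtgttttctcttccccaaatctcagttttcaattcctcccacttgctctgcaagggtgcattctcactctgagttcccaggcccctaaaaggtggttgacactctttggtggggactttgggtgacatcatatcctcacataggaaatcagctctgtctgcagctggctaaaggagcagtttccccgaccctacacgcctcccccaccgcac
Cd3e held 2 ETS matches, 1 E box and 1 CRE match. Cd5 held 2 ETS matches and 2 E boxes, and Cd8a held none of these 4 motifs. The PPAR direct repeat (AGGTCA, any base, AGGTCA) was found in 0 of the 7 promoters and in 0.0396% of the 32851 promoters searched. A repeat this rare would seldom be found in 7 promoters. Whether Cre acted in T cells was not tested, and this search says nothing of the deletion. CAGGTG was found in 5 of the 7 (Cd3d, Cd3e, Cd3g, Cd247 and Cd5) and in 20.2% of all promoters, AGGAAG in 4 of the 7 and in 35.4%, and TGTGGT in Klrk1 alone and in 16.8%. AGATAA, the letters of GATA factors, was found in Cd3g alone and in 11.2% of all promoters, CTTTGA (TCF/LEF) in 3 of the 7 and in 16%, and TGACGT in Cd3e alone and in 7.51%; these letters say nothing of whether a factor binds.

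The CD3 complex carries the signal of the T cell receptor into the cell. Cd3e (chromosome 9, 44998743 to 45009590 of mm10, minus strand) encodes the ε chain, which pairs with the γ and δ chains. In WT mice it ranged from 14.5 to 33.9 CPM with a median of 23, and in Pparg-/-epi mice from 10.8 to 18.5 CPM with a median of 13.6. WT 3 and WT 4 were highest and Pparg-/-epi 7 was lowest, and the groups overlapped through WT 1 and WT 6. Cd3e was altered, with a log2FC of -0.75 (SE 0.21, adjusted p = 0.0325 by edgeR), a level 1.69-fold lower. The call was lost when any of WT 3, 4 or 5 or Pparg-/-epi 7, 8, 9, 11 or 12 was left out (log2FC -0.78 to -0.62, adjusted p = 0.052 to 0.0783). It was also lost among the 7 female mice alone (-0.88, adjusted p = 0.0938) and with RIN, the RNA integrity number, as a covariate (-0.68, adjusted p = 0.0579).

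Cd247 encodes the ζ chain, whose tail holds most of the complex's signalling motifs. It lies on chromosome 1 (165788681 to 165871153, plus strand), apart from the other 3 genes. It ranged from 10.1 to 31.9 CPM in WT mice (median 17.2) and from 7.28 to 14.9 CPM in Pparg-/-epi mice (median 10). All 6 Pparg-/-epi mice were below the WT median, but the log2FC of -0.83 (SE 0.27) missed the threshold (edgeR, adjusted p = 0.0556). Cd247 was altered without WT 1 (adjusted p = 0.0202), without WT 2 (adjusted p = 0.0419) and without Pparg-/-epi 10 (adjusted p = 0.0461), and, with all mice, with the likelihood ratio test (adjusted p = 0.0325) and with DESeq2 (adjusted p = 0.0191).

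Cd3g and Cd3d encode the γ and δ chains and lie beside Cd3e on chromosome 9, with the 3 genes within 40.0 kb. Cd3g (44969572 to 44980431, minus strand) is separated by 1354 bases from Cd3d (44981786 to 44987052, plus strand), which lies 11690 bases from Cd3e. Cd3g ranged from 21.1 to 45.9 CPM in WT mice (median 31) and from 12.5 to 35.1 CPM in Pparg-/-epi mice (median 22.7), and Cd3d from 2.3 to 9.91 CPM (median 6.24) and from 2.91 to 5.32 CPM (median 4.34). Both overlapped between the groups. Their log2FCs were -0.47 (SE 0.25, adjusted p = 0.238) for Cd3g and -0.53 (SE 0.29, adjusted p = 0.244) for Cd3d by edgeR. In all 4 chains the lowest WT value was that of WT 1 and the highest Pparg-/-epi value that of Pparg-/-epi 10. Without WT 1 the log2FC of Cd3d was -0.71 (adjusted p = 0.0422), past the threshold.

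Klrk1 encodes NKG2D, a receptor on dendritic epidermal T cells, CD8 T cells and NK cells that recognizes ligands of stressed cells. Klrk1 (chromosome 6, 129610323 to 129623864, minus strand) ranged from 5.75 to 10.8 CPM in WT mice (median 8.83) and from 5.62 to 10.6 CPM in Pparg-/-epi mice (median 9.14). The groups covered nearly the same range, and the log2FC was 0.06 (SE 0.21, adjusted p = 0.879 by edgeR). Of its listed ligands, H60c had a log2FC of 0.42 (adjusted p = 0.135), and Hcst, the adaptor that carries its signal, 0.46 (adjusted p = 0.349).

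Cd5 encodes a scavenger receptor family protein that dampens T cell receptor signalling. It lies on chromosome 19 (10718143 to 10738974, minus strand). It ranged from 0.426 to 3.61 CPM in WT mice (median 1.49) and from 5.67 to 10.2 CPM in Pparg-/-epi mice (median 9.48), on 4 to 68 and 66 to 191 counts. All Pparg-/-epi mice exceeded all WT mice, with Pparg-/-epi 12 the lowest of its group and WT 1 and WT 2 the highest of theirs. The log2FC was 2.28 (SE 0.40, adjusted p = 0.00272 by edgeR), a level 4.86-fold higher. Cd5 was altered in all 12 fits that left out a mouse (2.09 to 2.59) and in all 12 other alternatives (1.5 to 2.5).

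Cd8a encodes the α chain of the CD8 coreceptor, which binds MHC class I. It lies on chromosome 6 (71373427 to 71379171, plus strand). It ranged from 0.192 to 1.32 CPM in WT mice (median 0.613) and from 2.06 to 5.33 CPM in Pparg-/-epi mice (median 2.91), on 3 to 21 and 24 to 59 counts. The groups did not overlap, and Pparg-/-epi 11 was highest. The log2FC was 2.20 (SE 0.42, adjusted p = 0.00437 by edgeR), a level 4.58-fold higher. Cd5 and Cd8a were the 2 of the 10 genes whose groups did not overlap, against 7.9% of all genes. Cd8a of WT 1 (0.192 CPM) and WT 3 (0.32 CPM) and Cd5 of WT 3 (0.426 CPM) were under 0.5 CPM. WT mice alone would thus not have listed either gene. Cd8a was altered in all 12 fits that left out a mouse, but not among the 7 female mice alone (1.78, adjusted p = 0.0538).

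Cd4 encodes the coreceptor for MHC class II and is also found on some myeloid cells. Cd4 (chromosome 6, 124864693 to 124888209, minus strand) ranged from 0.746 to 8.07 CPM in WT mice (median 2.14) and from 4.41 to 7.99 CPM in Pparg-/-epi mice (median 5.86). All 6 Pparg-/-epi mice exceeded the WT median, and the highest value of all was that of WT 2. The log2FC was 0.93 (SE 0.43, adjusted p = 0.173 by edgeR) with all mice and 1.46 (SE 0.33, adjusted p = 0.00747) without WT 2.

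Itgae encodes the αE chain of CD103, which joins the β7 chain to hold T cells to E-cadherin of keratinocytes, and which some dendritic cells also carry. Itgae (chromosome 11, 73090595 to 73147449, plus strand) ranged from 7.29 to 22.4 CPM in WT mice (median 11.6) and from 13.7 to 27.3 CPM in Pparg-/-epi mice (median 20.9). The groups overlapped through WT 2 only. The log2FC was 0.70 (SE 0.25, adjusted p = 0.0751 by edgeR), and 0.92 (SE 0.20, adjusted p = 0.007) without WT 2. Itgb7, for β7, had a log2FC of 0.34 (adjusted p = 0.137), and Cdh1, for E-cadherin, one of 0.06 (adjusted p = 0.768).

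Cd2 encodes an adhesion molecule that binds CD48 on neighbouring leukocytes. Cd2 (chromosome 3, 101275908 to 101287939, minus strand) ranged from 3.26 to 7.64 CPM in WT mice (median 6.57) and from 6.5 to 10.9 CPM in Pparg-/-epi mice (median 7.36). The lowest value was that of WT 1, and the groups overlapped. The log2FC was 0.41 (SE 0.22, adjusted p = 0.244 by edgeR).

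The genotype-by-sex interaction passed an adjusted p of 0.05 in 0% of all genes (0 of 14533 by edgeR, with 741 at an unadjusted p under 0.05). Among the 10 genes its unadjusted p was lowest for Cd8a (0.137). Cd247 lies over part of Pou2f1 in the annotation and Itgae over Gsg2, and the strand setting of the counting is not given in the sources used here, so reads of such pairs may not be told apart. Of the 75-base stretches in Cd247 transcripts, 2.42% also occur in Gm16565, and none of those of the other 9 genes occur in another gene.

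Levels of different genes were compared as RPKM (CPM per kilobase of the gene's exons). In WT mice the medians ran from Cd3g (30.3 RPKM) and Cd3e (16) through Cd2 (5.74), Cd3d (4.7), Cd247 (3.74), Klrk1 (2.64) and Itgae (2.53) down to Cd5 (0.718), Cd4 (0.692) and Cd8a (0.196). Of neighbours in this order, the ranges of Cd3e and Cd2 alone did not overlap. In Pparg-/-epi mice Cd3g (22.2 RPKM), Cd3e (9.48) and Cd2 (6.44) again came first, followed by Cd5 (4.58), Itgae (4.57), Cd3d (3.27), Klrk1 (2.73), Cd247 (2.18), Cd4 (1.89) and Cd8a (0.931). There the ranges of Cd2 and Cd5 alone, among neighbours, did not overlap. Near-equal medians give no firm order: Cd5 exceeded Cd4 in 2 of 6 WT mice, and Itgae in 2 of 6 Pparg-/-epi mice.

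Within single mice, the ratio of Cd8a to Cd3e (RPKM over RPKM) ranged from 0.00459 to 0.0371 in WT mice (median 0.00971) and from 0.068 to 0.161 in Pparg-/-epi mice (median 0.0986). The ratio of Klrk1 to Cd3e ranged from 0.129 to 0.21 (median 0.153) and from 0.223 to 0.323 (median 0.269). Neither ratio overlapped between the groups. Cd8a was higher and Cd3e lower in the fit above, so the first ratio is not a separate result. A lower Cd3e also raises any ratio to it. The ratio of Cd247 to Cd3e did overlap, with medians of 0.228 in WT and 0.23 in Pparg-/-epi mice. The ratios of Itgae to Cd3e (medians 0.152 and 0.497), of Cd4 to Cd3e (0.05 and 0.21) and of Cd4 to Cd8a (3.25 and 2.4) overlapped too. These ratios were not tested.

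**Figure D2:**
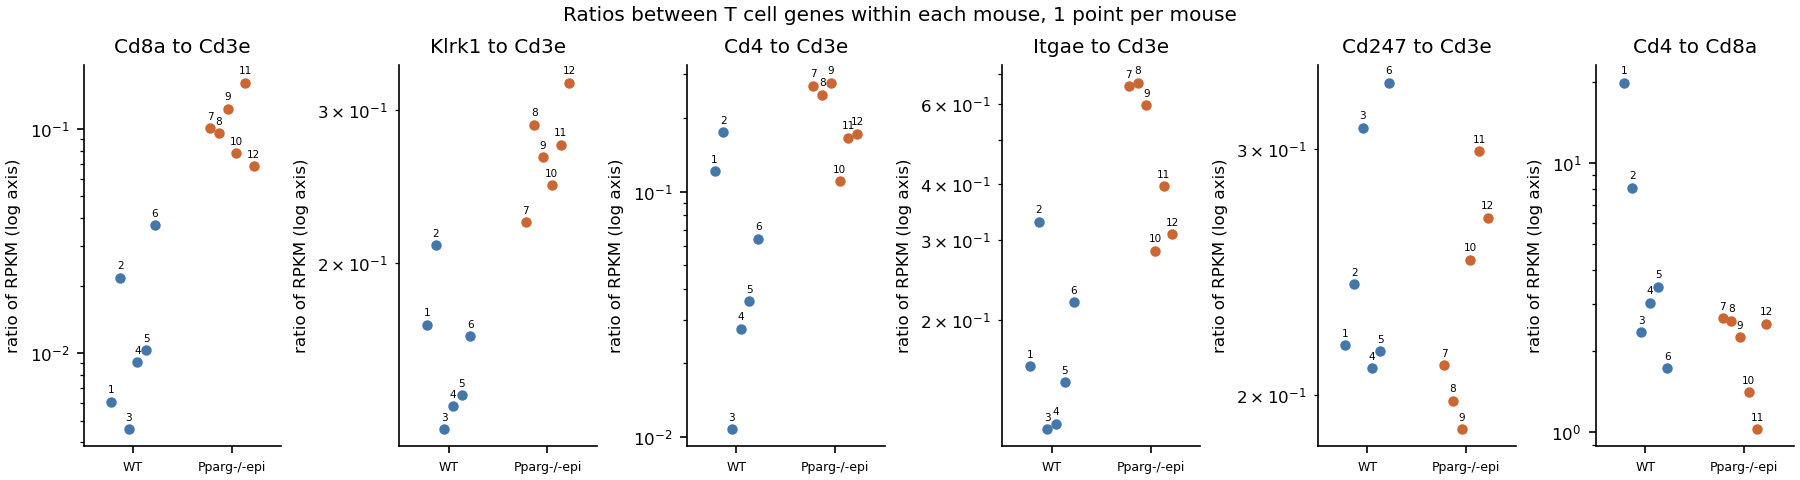
Ratios of RPKM between T cell genes (vertical log axes) in each WT (blue) and Pparg-/-epi mouse (orange), with library numbers. The ratios of Cd8a and Klrk1 to Cd3e do not overlap between the groups, whereas that of Cd247 to Cd3e covers 0.209 to 0.335 across WT and 0.189 to 0.299 across Pparg-/-epi mice.

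Across the 12 mice, with group means subtracted from log2 CPM, the other CD3 chains and Klrk1 followed Cd3e. Pearson's r with Cd3e was 0.84 for Cd247, 0.83 for Klrk1, 0.82 for Cd3d and 0.80 for Cd3g, but 0.11 for Itgae, 0.08 for Cd8a, -0.50 for Cd5 and -0.55 for Cd4. Over all genes the median r was 0 and the 95th percentile 0.69. With each mouse left out in turn, r stayed between 0.75 and 0.90 for these 3 chains and Klrk1, but ran from -0.37 without WT 1 to 0.39 without WT 6 for Cd8a, and from -0.65 without WT 6 to -0.30 without WT 3 for Cd5. For Itgae it was -0.30 without WT 1, and for Cd2, at 0.53 with all mice, 0.14 without WT 1. The highest pair values among the 10 genes were those of Cd3g with Cd247 (0.93) and of Cd5 with Cd4 (0.88). The genes most like Cd3e included Zfp942, Gm561, C1d, 1110032A03Rik, Hat1, Rsbn1l and Pex2 (r from 0.90 to 0.93), and Cd247 ranked 93 in that order. All of these genes were read from the same 12 libraries, and the values describe those mice only.

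The endothelial marker level moved with several of these values. The summed level of 6 endothelial markers ranged from 7.99 to 133 CPM in WT mice (median 26.3) and from 33.4 to 210 CPM in Pparg-/-epi mice (median 122), and 1 of the 6, Emcn, was altered (log2FC 1.79, adjusted p = 0.034). WT 2 and WT 1, the youngest WT mice, had the highest endothelial levels, and the highest Cd5 and Cd4 levels, among WT mice. With the endothelial level as a covariate, an alternative added after seeing the data, the log2FCs were 1.79 for Cd5 (adjusted p = 0.00133) and 2.31 for Cd8a (adjusted p = 0.00718), and both remained altered. Under that covariate Cd3e stood at -0.50 (adjusted p = 0.136), Cd247 at -0.37 (adjusted p = 0.254), Cd4 at 0.37 (adjusted p = 0.424) and Itgae at 0.36 (adjusted p = 0.337). Fibroblasts are dermal cells too, and 0 of their 6 markers were altered by edgeR. The summed fibroblast level ranged from 1010 to 34500 CPM in WT mice (median 7780) and from 5320 to 11200 CPM in Pparg-/-epi mice (median 8650). The part of dermal RNA in these differences was not otherwise tested.

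**Figure D3:**
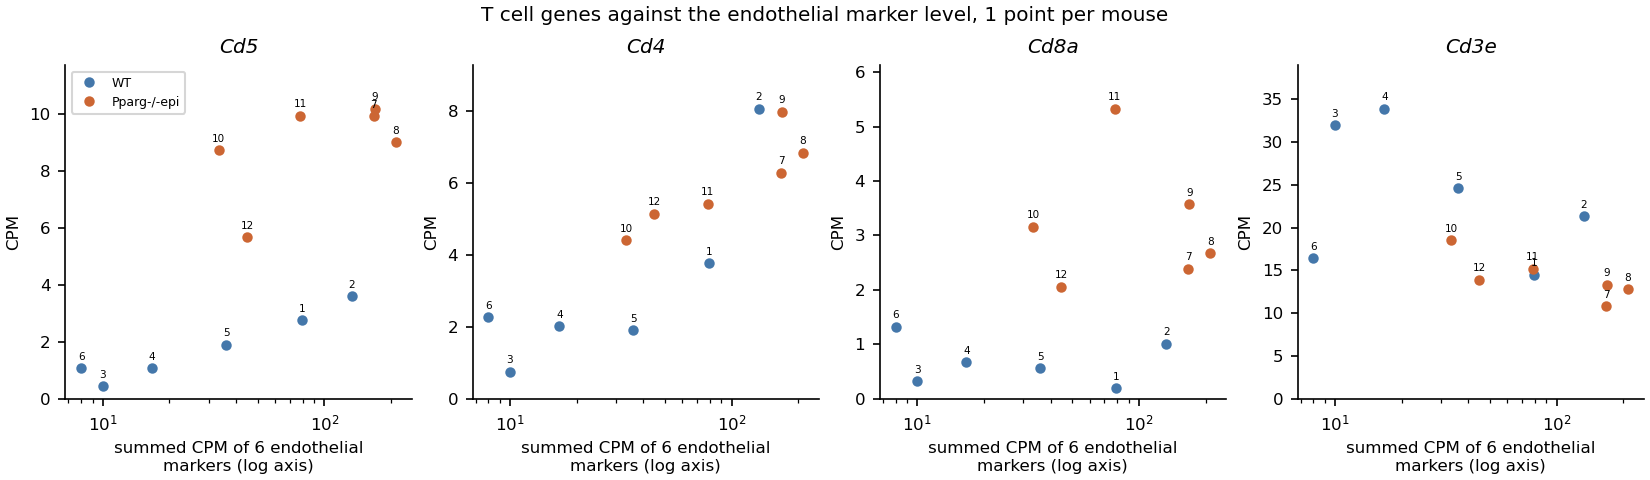
CPM of Cd5, Cd4, Cd8a and Cd3e (vertical axes) against the summed CPM of 6 endothelial markers (horizontal log axes) in WT (blue) and Pparg-/-epi mice (orange), with library numbers. Cd5 and Cd8a of Pparg-/-epi 10, at an endothelial level of 33.4 CPM, lie above all WT mice. Cd4 of WT 2, at an endothelial level of 133 CPM, lies just above all Pparg-/-epi mice.

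The mouse names also differed between the groups. A number within these names, whose meaning the labels do not give, was shared by 4 of the 6 WT mice and by 0 Pparg-/-epi mice, and 1 number was held by both groups. The other 2 WT mice, WT 1 and WT 2, were also the youngest WT mice and had the highest endothelial levels of their group. Name number, age and endothelial level could thus not be told apart among WT mice. A comparison against these 2 WT mice alone was added after seeing the data. By edgeR the log2FCs were 1.5 for Cd5 (adjusted p = 0.0265), 2.38 for Cd8a (adjusted p = 0.0795) and -0.33 for Cd3e (adjusted p = 0.454). Cd5 was the only one of the 10 genes altered there. The number and the genotype could not otherwise be told apart.

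Markers of other cells that carry some of these genes were examined beside them. Of 11 NK cell markers 3 were listed, with summed levels of 4.15 to 15.4 CPM in WT and 4.42 to 8.14 CPM in Pparg-/-epi mice, and Klrc1 was lower (log2FC -1.0, adjusted p = 0.0317). Of 6 B cell markers only Blnk, which other cells also express, was listed, and Cd79a and Ms4a1 were not. Of 8 markers of dendritic cells other than Langerhans cells 7 were listed, with sums of 8.06 to 76.4 CPM for WT and 19.5 to 37.4 CPM for Pparg-/-epi mice. Of these 7, 0 were altered by edgeR or DESeq2, and 1 had an unadjusted p under 0.05 by edgeR, as did 29.5% of all genes. Of 9 markers of Langerhans cells, the other resident leukocytes of the epidermis, 2 were higher, Epcam (log2FC 1.04, adjusted p = 3e-04) and Mfge8 (0.92, adjusted p = 0.00305), which other cells also express. Their defining marker Cd207 had a log2FC of 0.00 (SE 0.22, adjusted p = 0.996), and the sum of all 9 ranged from 1670 to 3760 CPM over WT mice and from 2270 to 2580 CPM over Pparg-/-epi mice. Of 9 macrophage markers 0 were altered by edgeR or DESeq2 and 0 had an unadjusted p under 0.05 by edgeR. It was highest among WT mice in WT 2 (532 CPM) and WT 1 (284 CPM), against 85.3 to 144 CPM in the others, and was 285 to 305 CPM in Pparg-/-epi 7 to 9, against 176 to 202 CPM in 10 to 12. Of 7 neutrophil markers 3 were listed, with sums of 11.5 to 23.9 CPM over WT mice and 21.4 to 35.3 CPM over Pparg-/-epi mice, and Cxcr2 was higher (log2FC 3.55, SE 0.73, adjusted p = 0.00662). All 7 mast cell markers were higher, with sums of 20 to 95.3 CPM for WT and 138 to 250 CPM for Pparg-/-epi mice. Of these markers, Fcer1a was at most 0.0672 CPM in WT mice and was listed only through Pparg-/-epi mice. The part of these cells in the T cell gene differences was not tested.

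Other genes of T cells, their ligands and their skin setting were grouped in 6 lists. Some of them, such as Cdh1 and Gata3, are also expressed by keratinocytes. Of these lists 97 genes were in the table, of which 15 were higher, 7 lower and 75 not altered. That is 22.7% altered, beside 10.3% of all genes, and their median log2FC was 0.30. The lists were chosen with earlier results of these data known, so a share above that of all genes is no test of T cell genes as a group. Without WT 2, 26 were higher and 9 lower. In that fit the number altered over all genes also rose, from 1493 to 2249. A larger count without WT 2, here or in a single list below, is thus not by itself particular to T cell genes. Of the 22 list genes altered with all mice, 11 were altered in all 12 fits that left out a mouse, and the other 11 lost the call in at least 1. No T cell receptor chain gene was listed under the symbols searched, so γδ and αβ receptors were not analysed here. Among the partners of these chains was Cd8b1, for the β chain of CD8. It ranged from 0 to 6 counts in WT and from 10 to 31 counts in Pparg-/-epi mice (log2FC 2.82, adjusted p = 0.00512 by edgeR). Cd8b1 was at most 0.318 CPM in WT and at least 0.859 CPM in Pparg-/-epi mice, so it was listed only through Pparg-/-epi mice. A gene as low in both groups would not have been listed, so its rise adds no support to that of Cd8a. Cd6, Blk, Ccr6, Gzmb and Ccr7, described below, had WT medians under 0.5 CPM and also needed Pparg-/-epi mice to be listed. The count of 15 higher genes includes them and Cd8b1, and their rises add no support either. Trat1, an adaptor of the receptor complex, had a log2FC of -0.70 (adjusted p = 0.0761).

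Of 19 listed genes of T cell receptor signalling, 1 was higher and 0 lower by edgeR (2 and 0 by DESeq2), and 4 had an unadjusted p under 0.05, which 29.5% of all genes had. The higher gene was Prkcq, for protein kinase C θ, at 7.88 to 17.1 CPM in WT and 21.5 to 34.3 CPM in Pparg-/-epi mice (log2FC 1.11, SE 0.20, adjusted p = 0.00335). Lck and Zap70, the kinases that act first after the receptor, had log2FCs of 0.07 (adjusted p = 0.854) and -0.15 (adjusted p = 0.774). Ptprc, for the leukocyte marker CD45, had one of -0.03 (SE 0.19, adjusted p = 0.949). The median of the 19 genes was 0.24. Without WT 2, 3 of the 19 were higher.

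Of 16 costimulatory and inhibitory receptors, 3 were higher and 1 lower, and 8 and 2 without WT 2. Cd6, a receptor related to Cd5, rose from 0.079 to 0.849 CPM in WT to 1.08 to 3.33 CPM in Pparg-/-epi mice (log2FC 2.86, adjusted p = 0.00185). Its WT median was 0.227 CPM, so Cd6 needed Pparg-/-epi mice to be listed. Icos and Tnfrsf9, costimulatory receptors of activated T cells, rose by log2FCs of 1.59 (adjusted p = 0.0125) and 1.54 (adjusted p = 0.00365). Cd96, a receptor of T and NK cells, decreased by a log2FC of 0.97 (adjusted p = 0.00785). Of 9 partners and ligands of the 10 genes, 0 were altered by edgeR and 0 by DESeq2, and 3 had an unadjusted p under 0.05 by edgeR, beside 29.5% of all genes.

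Of 31 listed genes of dendritic epidermal T cells and skin residency, 6 were higher and 3 lower, and 9 and 4 without WT 2. The higher genes included Blk, a kinase of B cells and some γδ T cells (log2FC 2.56, adjusted p = 0.0052), the chemokine receptor Ccr6 (2.13, adjusted p = 0.0489) and the granzymes Gzmc (2.08, adjusted p = 0.0195) and Gzmb (1.71, adjusted p = 0.0264). Blk, Ccr6 and Gzmb had WT medians of 0.281, 0.173 and 0.475 CPM, so they too needed Pparg-/-epi mice to be listed. Gpr55, a lipid receptor, had a log2FC of 1.27 (adjusted p = 0.0166), and Amica1, a costimulatory receptor of these cells, one of 0.63 (adjusted p = 0.0452). Cd7, Ccr4 and Il15 fell, by 0.75 (adjusted p = 0.0365), 1.03 (adjusted p = 0.0319) and 1.02 (adjusted p = 0.0274). Several of these calls were lost when a mouse was left out: Amica1 in 11 of the 12 fits (all but that without WT 2), Ccr6 in 9 (all but those without WT 1, WT 2 and Pparg-/-epi 12), and Ccr4 in 8 (all but those without WT 1, WT 2, Pparg-/-epi 10 and 11). Cd7 lost it without WT 3, 4 or 5 or Pparg-/-epi 7, 8, 9 or 11, Il15 without WT 3 or 6 or Pparg-/-epi 7, 8, 9 or 12, and Gzmb without WT 1 or 5 or Pparg-/-epi 7, 9 or 11. Thy1, which these cells carry at high levels but which other skin cells share, had a log2FC of 0.43 (SE 0.25, adjusted p = 0.281).

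Of 20 subset factors and genes of circulating T cells, 4 were higher and 3 lower, and 5 and 3 without WT 2. Ccr7, the lymph node homing receptor, rose from 0.126 to 0.852 CPM in WT to 1.04 to 3.01 CPM in Pparg-/-epi mice (log2FC 2.07, adjusted p = 0.00968). Its WT median was 0.389 CPM, so Ccr7 needed Pparg-/-epi mice to be listed. Ikzf3, Il2ra and Cxcr6 rose by log2FCs of 1.88 (adjusted p = 0.0222), 1.00 (adjusted p = 0.0362) and 0.75 (adjusted p = 0.0214). Gata3, Ikzf2 and Ikzf4 fell by 0.98 (adjusted p = 0.0238), 0.90 (adjusted p = 0.0104) and 0.82 (adjusted p = 0.0329) on the log2 scale. Il2ra lost its call without WT 1, 3, 4 or 6 or Pparg-/-epi 7, 8, 9 or 11, Gata3 without WT 3, 4 or 6 or Pparg-/-epi 7 or 9, and Ikzf4 without WT 1, 4 or 6 or Pparg-/-epi 7 or 8. Ikzf3 lost it without WT 4 and Cxcr6 without Pparg-/-epi 8, while Ikzf3 reached a log2FC of 2.67 without WT 2. Gata3 is also a factor of keratinocytes, which make up most of the epidermis, and it ranged from 295 to 1250 CPM over all mice. Ikzf2 ranged from 135 to 255 CPM in WT and from 77.8 to 132 CPM in Pparg-/-epi mice, above every CD3 chain. How much of its RNA came from T cells was not tested. Foxp3, the factor of regulatory T cells, had a log2FC of 1.69 (SE 0.56, adjusted p = 0.0612).

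**Figure D4:**
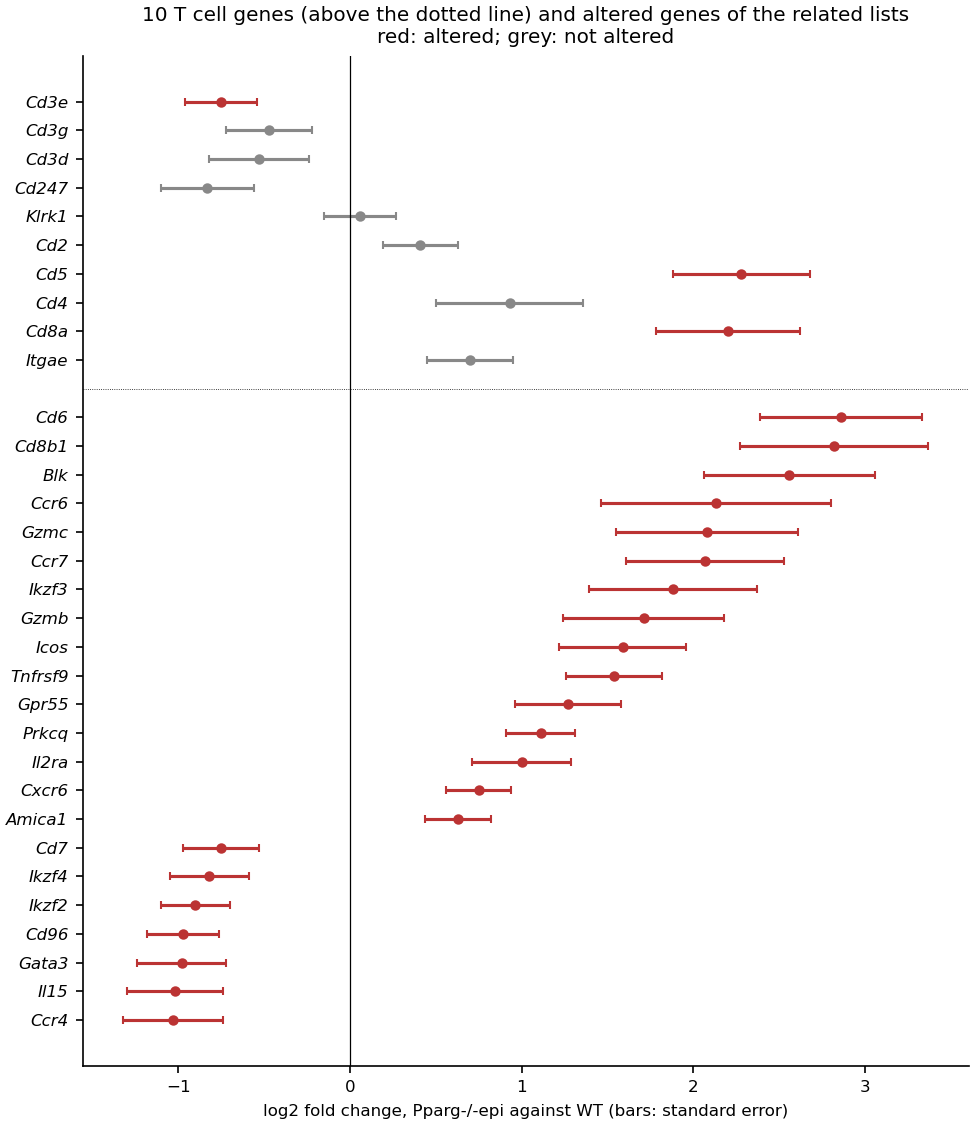
Log2 fold change of Pparg-/-epi against WT mice (horizontal axis) with its standard error (bars) for the 10 T cell genes, above the dotted line, and for altered genes of the related lists. Red points are altered and grey points are not. The CD3 chains lie between -0.83 and -0.47, and Cd5, Cd8a, Cd6 and Cd8b1 between 2.20 and 2.86.

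**Figure D5:**
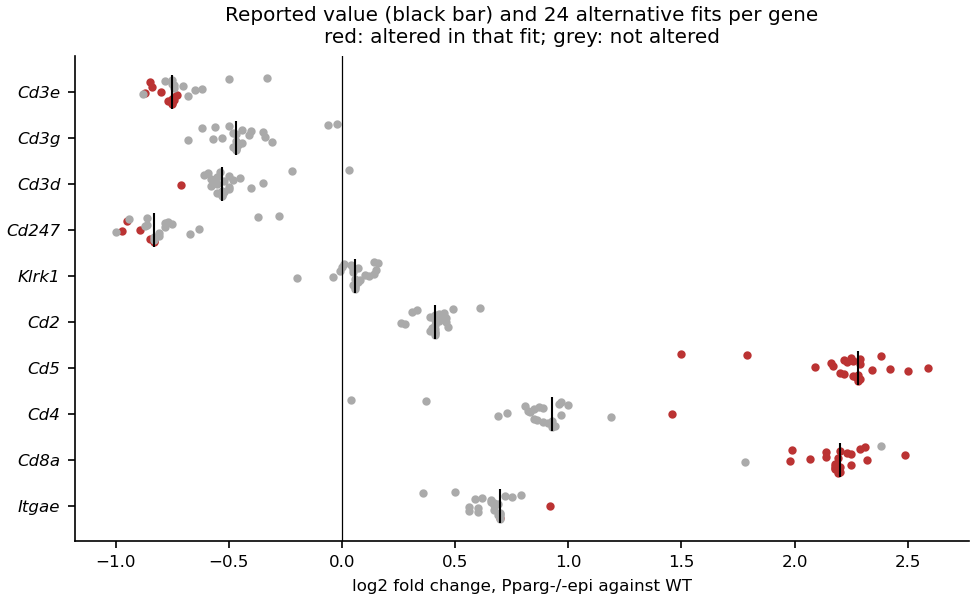
Log2 fold change of each of the 10 genes (horizontal axis) in the reported fit (black bar) and in 24 alternative fits (points), red where altered. Cd5 is red in all alternatives, Cd8a in 22, and Cd3e in 12.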

How the data were processed

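RNA-seq counts of 12 mice were used, 1 library per mouse. The authors aligned paired reads with STAR 2.5.2b to mm10, left out reads of low quality or with several positions, and deposited raw counts per gene from featureCounts (Subread 1.5.1). The deposited table lists 14533 genes; 2800 blank rows were dropped. Libraries 11 and 12 were matched to their columns through the study's run sheet. CPM used TMM scaling, and RPKM divided CPM by the deposited exon length.

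Genotype was tested with edgeR 4.0.16 (R 4.3.3), quasi-likelihood, over all genes with Benjamini-Hochberg adjustment; scripts were tested on simulated data. Alternatives were the likelihood ratio test that the study used, DESeq2 1.42.0, other scalings, a mean of at least 20 counts, sex, RIN or age as covariates, females alone and each mouse left out. Correlations used log2 CPM with a prior count of 2. Figures used matplotlib 3.10.9. The 10 genes and the lists were chosen with earlier results of these data known. Named genes were all 10, the T cell receptor chains listed, altered list genes (at most 8 a list by size of change, with Amica1 named beyond that), the 10 most like Cd3e (some are not reported here), defining markers, and Pparg; further genes named without an alteration were chosen after their values were seen.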

Additional observations from a re-analysis of the deposited data

Results flagged for a closer look

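Single mice that lay far from the rest of their group of 6 were sought in 32 sets of values, where chance gives about 1 in 20. Cd5 of Pparg-/-epi 12 was 5.67 CPM, below the next mouse at 8.73 CPM. Itgae of WT 2 was 22.4 CPM, above the next WT mouse at 12.8 CPM. The ratio of Cd4 to Cd8a in WT 1 was 19.9, above the next at 8.09, and rested on 3 Cd8a counts in that mouse.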

How the results depend on the processing

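Of the 10 genes 3 were altered as reported; DESeq2 gave 5, the 7 females alone 1, the 2 WT mice of other name numbers 1, and leaving out a mouse 2 to 6, with 5 without WT 1 and 6 without WT 2. Of these, 2 were higher as reported, 1 among the females, 1 against the 2 WT mice, and 2 to 4 with a mouse left out. The lower count of 1 became 2 with the likelihood ratio test, DESeq2, upper quartile scaling or library totals, 0 with RIN as a covariate, among females, with the endothelial covariate or against the 2 WT mice, and 0 to 3 with a mouse left out. Klrk1 turned to -0.20 among females, -0.04 without WT 1 and -0.01 without WT 6 (up to 0.15 without Pparg-/-epi 7), and Cd3d to 0.03 against the 2 WT mice. Over all genes, 651 were altered among females, 389 against the 2 WT mice and 1116 to 2249 with a mouse left out, the last without WT 2. Of the related lists, 22 became 5 among females, 0 against the 2 WT mice and 13 to 35 with a mouse left out; higher genes, 15, became 3, 0 and 11 to 26, and lower genes, 7, became 2, 0 and 2 to 9, and 4 with RIN and 3 with the endothelial covariate. The cause was not tested, though the smaller sets hold fewer mice. No paired analysis was possible because the replicate numbers only number the libraries from 1 to 12 and none is in both groups, and because the number within the mouse names that both groups hold joins only 1 pair, WT 2 and Pparg-/-epi 10. Counts of 3 to 21 behind Cd8a in WT mice limit its precision.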
